A study of Mus musculus with 24 samples.

Results

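The genes of DNA replication and S phase were followed in mouse myeloid progenitors that carried wild-type or mutant ERG and were treated with an HDAC3 inhibitor. The set was drawn up by name from the known roles of its 45 members, out of 53801 genes in the count table, at a time when earlier results of these data were known. All 45 passed the filter on low counts, which 12963 genes of the table passed. The members fall into 9 roles: origin licensing, the MCM2-7 helicase, helicase activation, polymerases and primase, the sliding clamp and its loader, RPA and Okazaki fragment joining, nucleotide supply, chromatin assembly with DNA methylation, and the E2F factors with cyclin E.

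Before S phase, the origin recognition complex, CDC6 and CDT1 load the MCM2-7 ring onto DNA, and at the start of S phase CDC7, MCM10, CDC45 and the GINS complex turn that ring into an active helicase. DNA polymerases, the PCNA clamp, RPA, FEN1 and DNA ligase then copy and join the strands, while ribonucleotide reductase and thymidylate synthase supply the nucleotides. Many of these genes are transcribed in late G1 under E2F factors, and progenitors of the granulocyte lineage leave the cell cycle as they mature.

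The cells were ER-Hoxb8 granulocyte-monocyte progenitors, a C57BL/6 mouse line held in an immature, dividing state by an estrogen-dependent Hoxb8 protein that stops working once beta-estradiol is removed. Lentivirus brought in the human transcription factor ERG as wild type (WT-ERG), the same protein with a proline changed to leucine (P199L-ERG), or an empty backbone vector (BB). After beta-estradiol was washed out, each line received DMSO or 5 µM BRD3308, an inhibitor of the histone deacetylase HDAC3, for 36 h, which gave 6 groups of 4 libraries, described as independent experiments. The dose and time are those of the series record and of the study's methods, while other passages of the study give a different dose and a different time for this RNA sequencing.

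Each construct was a stable, GFP-sorted line, and no source states that the 4 libraries of a construct came from separate transductions. A difference between constructs may thus also be one between cell lines, and p-values measure the spread between these libraries, which may be technical. All 6 groups had been without beta-estradiol for the same time and all carried ER-Hoxb8. In bulk RNA, fewer cells in S phase and less of a transcript per cell cannot be told apart.

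The 24 libraries held 12510036 to 16280939 counts, of which mitochondrial genes took 3.89% to 5.08%. Replicate 4 of WT-ERG and replicate 4 of P199L-ERG in DMSO stood apart from the rest in their link to exon length. A gene's deviation from the mean of its group of 4 libraries correlated with its exon length at -0.47 and -0.44 there. The others lay at -0.21 to 0.42, and a library far from its group mean also shifts the values of its group mates the other way. Mouse *Erg* lay at 89.2 to 98.8 CPM (counts scaled to a common depth) in BB cells in DMSO and at 97.2 to 110.1 CPM in the ERG lines in DMSO. The human transgene was not analysed here, so the construct labels were not checked against it. All 10 progenitor markers, *Kit*, *Mpo* and *Elane* among them, were detected in every group. The hemoglobin gene *Hbb-bt* and the T cell gene *Cd4* were at 0 in every library, while other markers of the erythroid, megakaryocyte and lymphoid lineages were detected and moved with treatment or construct.

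All levels below are CPM scaled by edgeR's TMM factors. Tests are edgeR's quasi-likelihood test over all 12963 genes in 1 fit of the 24 libraries, Benjamini-Hochberg adjusted, with an adjusted p under 0.05 as the threshold. Fold changes are log2 values ± SE, with n = 4 libraries in each group.

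The replication genes were strongly expressed. Their median level over all libraries was 6.73 log2 CPM, against 4.78 for all genes tested, and 31 of the 45 were among the 25% of tested genes with the highest level. Per kilobase of exon, *Rrm2*, the small subunit of ribonucleotide reductase, stood highest in BB cells in DMSO at 186 RPKM, followed by *Mcm6* at 161, *Pcna* at 159 and *Mcm5* at 159. *Orc1*, the large subunit of the origin recognition complex, stood lowest at 7.40 RPKM, below *Pola1* at 9.17 and *Fen1* at 10.4. These RPKM values use the union of annotated exons.

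The promoters of 4 members are printed to show the sequence that E2F factors are known to prefer beside genes whose values are followed here. *E2f2*, *Mcm7* and *Pold1* had the smallest p values with BRD3308 in WT-ERG cells among the members whose window holds a match, and *Cdc45* had the smallest among those whose window holds none. Each window runs from 250 bases before to 50 bases after a RefSeq transcription start on build GRCm38.p6, and is given in the direction of the gene. The bases after the start were found in GENCODE M21 transcripts for *Mcm7*, *Pold1* and *Cdc45* but not for *E2f2*. The *E2f2* window ends 71 bases before the gene starts in that annotation. The same distance was -588 bases for *Mcm7*, -83 for *Pold1* and -64 for *Cdc45*, where a negative value means an end inside the annotated gene. The whole *Mcm7* window thus lies inside the annotated gene and not at its annotated start. Capitals mark matches to TTTCCCGC, TTTCGCGC, TTTGCCGC or TTTGGCGC or to the reverse complement of one of them. The window of *E2f2* is chr4:136172024-136172323 on the plus strand, with the match starting 39 bases after the start. That of *Mcm7* is chr5:138171834-138172133 on the minus strand, with matches at -165 and 16. That of *Pold1* is chr7:44548766-44549065 on the minus strand, with the match at 39, and that of *Cdc45* is chr16:18811923-18812222 on the minus strand.
E2f2: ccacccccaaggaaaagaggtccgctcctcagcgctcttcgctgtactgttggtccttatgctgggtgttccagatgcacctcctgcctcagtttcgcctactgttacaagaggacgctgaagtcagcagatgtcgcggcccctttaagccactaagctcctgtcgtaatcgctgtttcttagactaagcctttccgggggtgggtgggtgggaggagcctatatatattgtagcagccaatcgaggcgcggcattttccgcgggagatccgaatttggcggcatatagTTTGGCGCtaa
Mcm7: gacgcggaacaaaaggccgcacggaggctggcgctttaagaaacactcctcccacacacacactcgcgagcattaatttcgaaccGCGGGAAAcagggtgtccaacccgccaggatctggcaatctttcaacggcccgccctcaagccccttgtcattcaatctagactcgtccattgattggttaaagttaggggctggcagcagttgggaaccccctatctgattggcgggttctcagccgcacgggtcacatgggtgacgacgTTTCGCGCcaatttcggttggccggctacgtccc
Pold1: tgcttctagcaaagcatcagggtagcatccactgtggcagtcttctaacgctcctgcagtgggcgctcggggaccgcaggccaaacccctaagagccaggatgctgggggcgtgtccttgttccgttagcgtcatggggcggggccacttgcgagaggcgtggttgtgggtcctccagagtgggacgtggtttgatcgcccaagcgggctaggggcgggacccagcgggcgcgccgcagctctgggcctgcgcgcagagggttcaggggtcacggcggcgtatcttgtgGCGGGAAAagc
Cdc45: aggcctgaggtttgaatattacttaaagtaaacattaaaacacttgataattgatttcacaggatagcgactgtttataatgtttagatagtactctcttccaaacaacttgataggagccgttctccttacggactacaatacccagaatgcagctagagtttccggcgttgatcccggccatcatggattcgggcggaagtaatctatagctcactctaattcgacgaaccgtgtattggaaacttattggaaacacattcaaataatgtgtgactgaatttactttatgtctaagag

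Promoter windows were found for 36 of the 45 members, and those of *Gmnn*, *Mcm4*, *Gins1*, *Gins2*, *Gins4*, *Prim2*, *Pole*, *Rfc2* and *Ccne2* were not matched. Of the 36 genes, 15 held at least 1 match, or 41.7%, against 4.90% of the 9305 tested genes with a window and 2.60% of all 27025 genes of the table. The 22 matches in members lay at a median of 34 bases before the start, 13 of them within 100 bases of it. The CCAAT box, searched on both strands, was in 22 of the 36 genes, or 61.1%, against 43.4% of tested genes. A match is a string of letters and not a measured binding site.

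**Figure D1:**
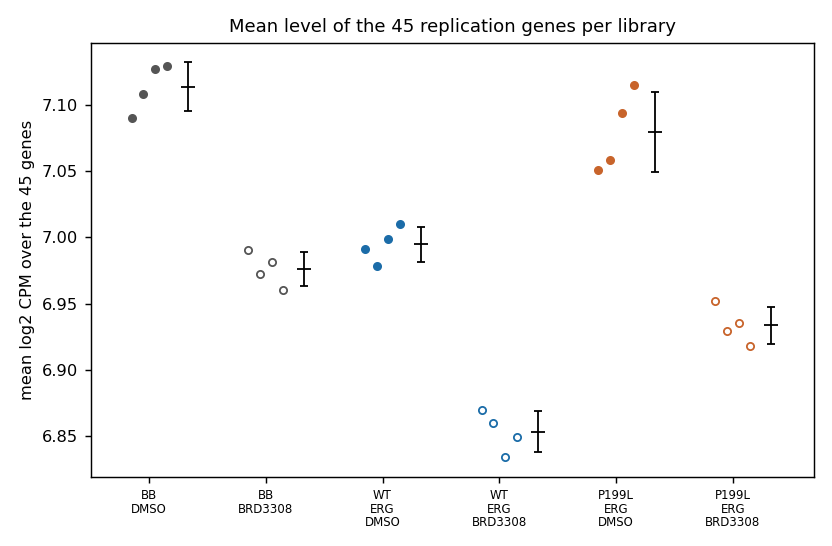
Mean log2 CPM over the 45 replication genes (y axis, starting above 0) in each of the 24 libraries, by group on the x axis. Filled points are DMSO, open points BRD3308, and the black bars are the mean ± SD of 4 libraries. The BRD3308 libraries of each construct lie below its DMSO libraries, and WT-ERG lies below BB in both treatments.

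Averaged over the 45 genes, the level was 7.11 ± 0.018 log2 CPM (SD, n = 4) in BB cells in DMSO and 6.98 ± 0.013 with BRD3308. In WT-ERG cells it was 6.99 ± 0.013 in DMSO and 6.85 ± 0.015 with BRD3308. In P199L-ERG cells it was 7.08 ± 0.030 in DMSO and 6.93 ± 0.014 with BRD3308. The plot of mean level by library shows that the DMSO and BRD3308 libraries of a construct did not overlap, that WT-ERG did not overlap BB under either treatment, and that P199L-ERG overlapped BB in DMSO only.

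Most replication genes were lower with BRD3308 in each of the 3 constructs. In BB cells 28 of the 45 fell and 2 rose, where 22% of all tested genes fell and 24% rose. In WT-ERG cells 24 fell and 3 rose, against 23.2% and 24.7% of all tested genes. In P199L-ERG cells 27 fell and 3 rose, against 24.1% and 24.4%. The median log2 change over the 45 genes was -0.17 in BB, -0.16 in WT-ERG and -0.16 in P199L-ERG cells, while the median over all tested genes was 0.006, -0.001 and -0.006. Among the 25% of genes with the highest level 35.4%, 36.5% and 38.0% fell in BB, WT-ERG and P199L-ERG, and of the 31 members in that class 20, 17 and 19 did. In all 3 constructs 19 members fell, *E2f2* and *Pola1* rose, and 10 members passed the test in none.

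**Figure D2:**
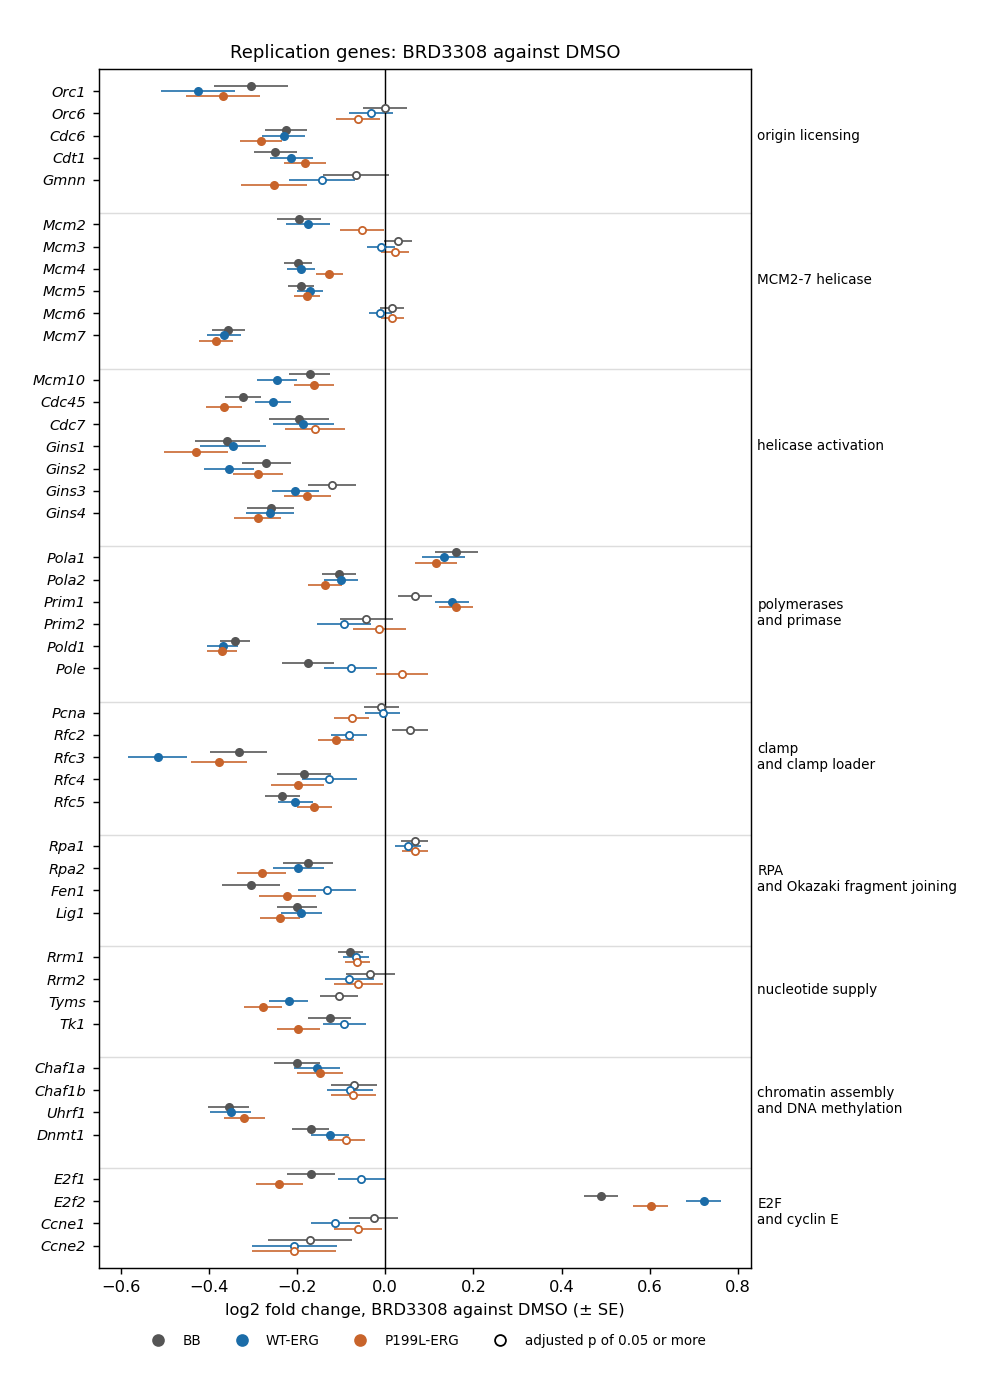
Log2 fold change with BRD3308 against DMSO (x axis, points with ± SE) for each of the 45 replication genes (y axis, grouped by role) in BB, WT-ERG and P199L-ERG cells. Filled points passed an adjusted p of 0.05 and open points did not. Most points lie left of 0 and *E2f2* stands alone at the right, at 0.49 to 0.72.

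Of the 5 origin licensing genes 3 fell in BB, 3 in WT-ERG and 4 in P199L-ERG. *Orc1* was at 29.6, 25.8, 25.9 and 24.3 CPM in the WT-ERG libraries in DMSO and at 20.8, 19.7, 18.3 and 20.0 CPM with BRD3308. All 4 treated WT-ERG libraries were below all 4 controls, and the log2 change was -0.42 ± 0.084 (adjusted p = 0.000137). In BB, where DMSO libraries lay at 23.9 to 27.5 CPM and BRD3308 libraries at 19.7 to 21.8 CPM, the change was -0.30 (adjusted p = 0.00405), again without overlap. It was -0.37 (adjusted p = 0.000599) in P199L-ERG, where the libraries overlapped, at 22.6 to 29.9 CPM in DMSO and 17.7 to 23.4 CPM with BRD3308. *Cdc6*, which helps load the MCM ring at the origin complex, was at 106, 103, 106 and 110.3 CPM in BB in DMSO and at 95.8, 90.7, 86.9 and 90.6 with BRD3308, a change of -0.23 ± 0.048 (adjusted p = 0.00032). It changed by -0.23 ± 0.049 (adjusted p = 0.000279) in WT-ERG and by -0.28 ± 0.048 (adjusted p = 1.85e-05) in P199L-ERG, and in no construct did its DMSO and BRD3308 libraries overlap. *Cdt1*, its partner in loading, fell in all 3 constructs too, by log2 values of -0.25, -0.21 and -0.18. *Gmnn*, which encodes the CDT1 inhibitor geminin, fell in P199L-ERG with -0.25 (adjusted p = 0.00623), and its values were -0.066 (adjusted p = 0.507) in BB and -0.14 (adjusted p = 0.119) in WT-ERG. Without replicate 4 of P199L-ERG in DMSO it gave -0.15 in both ERG lines (adjusted p = 0.0337 in P199L-ERG and 0.0165 in WT-ERG). *Orc6*, the smallest subunit of the origin complex, passed in none, with a log2 change of -0.031 in WT-ERG.

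Of the 6 subunits of the MCM2-7 ring, the replicative helicase, 4 fell in BB, 4 in WT-ERG and 3 in P199L-ERG. *Mcm7* was at 479.5, 497, 502 and 516 CPM in BB in DMSO and at 376, 397, 396 and 390.1 CPM with BRD3308. In WT-ERG it went from 456, 437, 466 and 474 CPM to 354, 351, 358 and 359 CPM, and in P199L-ERG from 472, 474, 501 and 546 CPM to 379, 379, 379.8 and 389.9 CPM. In every construct the 4 treated libraries lay below the 4 controls. The log2 changes were -0.36 ± 0.038 (adjusted p = 1.29e-08) in BB, -0.37 ± 0.038 (adjusted p = 7.95e-09) in WT-ERG and -0.38 ± 0.038 (adjusted p = 3.21e-09) in P199L-ERG. *Mcm4* and *Mcm5* fell in all 3 constructs, with *Mcm4* at -0.20, -0.19 and -0.13 and *Mcm5* at -0.19, -0.17 and -0.18 in BB, WT-ERG and P199L-ERG. *Mcm2* fell in BB (-0.20, adjusted p = 0.00193) and WT-ERG (-0.17, adjusted p = 0.00495) and gave -0.052 (adjusted p = 0.413) in P199L-ERG, where it passed without replicate 4 in DMSO (-0.13, adjusted p = 0.0024). *Mcm3* and *Mcm6*, which encode subunits of the same ring, passed in no construct. Their log2 changes lay between -0.0095 and 0.029 for *Mcm3* and between -0.011 and 0.016 for *Mcm6*, and the 95% intervals in WT-ERG cells were -0.07 to 0.05 and -0.07 to 0.04.

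Of the 7 genes of helicase activation, 6 fell in BB, 7 in WT-ERG and 6 in P199L-ERG, with medians of -0.26, -0.25 and -0.29. *Gins2*, a subunit of the GINS complex, was at 55.5, 51.1, 56.8 and 59.0 CPM in WT-ERG in DMSO and at 40.0, 44.9, 44.5 and 44.4 CPM with BRD3308, a change of -0.35 ± 0.056 (adjusted p = 7.59e-06). It changed by -0.27 (adjusted p = 0.000237) in BB and by -0.29 (adjusted p = 9.84e-05) in P199L-ERG, and its DMSO and BRD3308 libraries did not overlap in any construct. On the genome 67.3% of its exon bases lie opposite exons of *Gse1*, and since the strand setting of the counting is not given, reads of the pair may be mixed. *Gins1* and *Gins4*, which encode further GINS subunits, fell in all 3 constructs and changed by -0.36, -0.34 and -0.43 and by -0.26, -0.26 and -0.29 in BB, WT-ERG and P199L-ERG. *Cdc45*, which joins MCM2-7 and GINS in the active helicase, changed by -0.32, -0.25 and -0.37 in the same order. *Gins3*, the remaining GINS gene, gave -0.12 (adjusted p = 0.0692) in BB and fell in WT-ERG and P199L-ERG, and *Mcm10*, which helps start unwinding, fell in all 3 constructs with -0.17, -0.25 and -0.16. *Cdc7*, the kinase that triggers the step, was at 63.9, 59.5, 56.8 and 57.0 CPM in WT-ERG in DMSO and at 56.1, 52.5, 50.9 and 48.9 CPM with BRD3308. It fell there without overlap (-0.19 ± 0.069, adjusted p = 0.0277) and in BB with overlap (-0.20, adjusted p = 0.0191), and gave -0.16 (adjusted p = 0.0567) in P199L-ERG. Without replicate 4 of P199L-ERG in DMSO it passed in P199L-ERG too (-0.18, adjusted p = 0.0411). Its call was lost in BB without any 1 of 3 libraries (replicate 1 in DMSO, 3 or 4 in BRD3308, adjusted p of 0.0569 to 0.0742) and in WT-ERG likewise without replicate 1 in DMSO or 3 or 4 in BRD3308 (0.0543 to 0.0991).

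Among the 6 polymerase and primase genes 1 rose and 3 fell in BB, and 2 rose and 2 fell in each of the ERG lines. *Pold1*, the catalytic subunit of polymerase delta, was at 176, 172, 173 and 171 CPM in WT-ERG in DMSO and at 143, 134, 128 and 131 CPM with BRD3308. It was at 198, 200.3, 194 and 193 CPM and 153, 159, 159 and 149 CPM in BB and at 187, 184, 183 and 188 CPM and 146, 146, 141 and 142 CPM in P199L-ERG. No DMSO library overlapped a BRD3308 library of its construct, and the changes were -0.34 ± 0.034 (adjusted p = 2.91e-09) in BB, -0.37 ± 0.034 (adjusted p = 7.50e-10) in WT-ERG and -0.37 ± 0.034 (adjusted p = 6.42e-10) in P199L-ERG. Polymerase alpha and primase form the complex that lays down the first stretch of each new strand. *Pola1*, the catalytic subunit of polymerase alpha, rose in all 3 constructs, by 0.16 (adjusted p = 0.00746), 0.13 (adjusted p = 0.0258) and 0.12 (adjusted p = 0.0486) in BB, WT-ERG and P199L-ERG. *Prim1*, the catalytic primase subunit, rose in WT-ERG (0.15, adjusted p = 0.00169) and P199L-ERG (0.16, adjusted p = 0.00107) and gave 0.067 (adjusted p = 0.164) in BB. *Pola2*, the accessory subunit of polymerase alpha, fell in all 3, at -0.10, -0.10 and -0.14, and *Prim2*, the large primase subunit, passed in none, with values between -0.094 and -0.014. *Pole*, the catalytic subunit of polymerase epsilon, fell in BB (-0.18, adjusted p = 0.0155) and gave -0.079 (adjusted p = 0.287) in WT-ERG and 0.038 (adjusted p = 0.626) in P199L-ERG. Several of these small changes hung on single libraries. The call of *Pola1* was lost without any 1 of 4 libraries in WT-ERG (replicates 3 and 4 in DMSO, 1 and 4 in BRD3308, adjusted p up to 0.0749) and without any 1 of 11 of the 24 libraries in P199L-ERG (up to 0.183, without replicate 3 in DMSO). That of *Pola2* was lost without any 1 of 4 libraries in BB (replicates 1 and 3 in DMSO, 2 and 4 in BRD3308, up to 0.0878) and of 4 in WT-ERG (replicates 2 and 3 in DMSO, 1 and 2 in BRD3308, up to 0.0869), and that of *Pole* without replicate 2 of BB in BRD3308 (0.0646).

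The sliding clamp itself did not pass the test, while subunits of its loader fell. *Pcna* was at 311, 328, 331 and 352 CPM in WT-ERG in DMSO and at 321, 330.4, 332 and 334 CPM with BRD3308, so the groups overlapped, and the 95% interval of the log2 change was -0.09 to 0.08. In BB the change was -0.0087 (adjusted p = 0.879) and in P199L-ERG -0.076 (adjusted p = 0.115). *Rfc3*, a small subunit of the clamp loader, was at 55.8, 57.8, 62.3 and 70.6 CPM in WT-ERG in DMSO and at 42.7, 42.5, 43.8 and 43.0 CPM with BRD3308, with no overlap and the largest fall of any member in these cells (-0.52 ± 0.066, adjusted p = 2.51e-07). Its change was -0.33 (adjusted p = 0.000104) in BB and -0.38 (adjusted p = 2.18e-05) in P199L-ERG. Of the other loader subunits *Rfc5* fell in all 3 constructs, *Rfc4* in BB and P199L-ERG and *Rfc2* in P199L-ERG. *Rfc2* missed the threshold without replicate 4 of P199L-ERG in DMSO (-0.068, adjusted p = 0.0823), and *Rfc4* in BB without replicate 2 in DMSO (adjusted p = 0.0503). In WT-ERG, *Rfc2* (-0.091, adjusted p = 0.0123) and *Rfc4* (-0.13, adjusted p = 0.0337) passed without replicate 4 of P199L-ERG in DMSO. *Pcna*, like *Tyms*, has pseudogene copies in the annotation, with which its reads may be shared.

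Among the genes that coat and join new DNA, *Lig1*, the ligase that seals Okazaki fragments, was at 249, 239.5, 238 and 230.2 CPM in WT-ERG in DMSO and at 222, 211, 204 and 202 CPM with BRD3308. The groups did not overlap, and *Lig1* changed by -0.19 ± 0.046 (adjusted p = 0.0012) there, by -0.20 (adjusted p = 0.000696) in BB and by -0.24 (adjusted p = 9.61e-05) in P199L-ERG. *Rpa2*, a subunit of the single-strand binding protein RPA, fell in all 3 constructs, at -0.17, -0.20 and -0.28. *Rpa1*, the large subunit, gave 0.067 (adjusted p = 0.0691), 0.052 (adjusted p = 0.159) and 0.067 (adjusted p = 0.0647) in BB, WT-ERG and P199L-ERG and so passed in none. *Fen1*, the flap nuclease, fell in BB and P199L-ERG and gave -0.13 (adjusted p = 0.102) in WT-ERG, and 78.8% of its exon bases lie opposite the antisense gene *Gm10143*.

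Of the 4 nucleotide supply genes 2 fell in BB, 1 in WT-ERG and 2 in P199L-ERG. *Tyms*, thymidylate synthase, was at 93.2, 96.0, 99.4 and 105 CPM in WT-ERG in DMSO and at 85.7, 86.9, 82.7 and 83.1 CPM with BRD3308, without overlap (-0.22 ± 0.044, adjusted p = 0.000162). It changed by -0.28 (adjusted p = 6.41e-06) in P199L-ERG and by -0.10 (adjusted p = 0.0503) in BB, where its libraries did not overlap either. *Rrm1*, the large subunit of ribonucleotide reductase, fell in BB (-0.079, adjusted p = 0.0243) and gave -0.066 (adjusted p = 0.0573) in WT-ERG and -0.063 (adjusted p = 0.0706) in P199L-ERG. It passed in WT-ERG without replicate 4 of P199L-ERG in DMSO (-0.075, adjusted p = 0.0102). *Rrm2* passed in none, and *Tk1*, thymidine kinase, fell in BB (-0.13, adjusted p = 0.0371) and P199L-ERG (-0.20, adjusted p = 0.00147). In BB the call of *Rrm1* was lost without replicate 3 in DMSO (adjusted p = 0.0833) and that of *Tk1* without any 1 of 5 libraries (replicates 2, 3 and 4 in DMSO, 1 and 2 in BRD3308, adjusted p of 0.0502 to 0.110).

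Of the genes that act on chromatin behind the fork, *Uhrf1*, which recruits the maintenance methyltransferase to newly copied DNA, fell in every construct. It was at 379, 365, 369 and 355 CPM in WT-ERG in DMSO and at 298, 296, 284 and 274 CPM with BRD3308, with no overlap. Its changes were -0.35 ± 0.046 (adjusted p = 3.82e-07) in BB, -0.35 ± 0.047 (adjusted p = 4.92e-07) in WT-ERG and -0.32 ± 0.046 (adjusted p = 2.04e-06) in P199L-ERG. *Dnmt1*, that methyltransferase, fell in BB (-0.17, adjusted p = 0.00164) and WT-ERG (-0.13, adjusted p = 0.0157) and gave -0.088 (adjusted p = 0.0856) in P199L-ERG. It passed there without replicate 4 of P199L-ERG in DMSO (-0.12, adjusted p = 0.0263). *Chaf1a*, the large subunit of chromatin assembly factor 1, fell in all 3 constructs and *Chaf1b*, its middle subunit, passed in none. Without replicate 1 of WT-ERG in DMSO neither *Dnmt1* (adjusted p = 0.0894) nor *Chaf1a* (adjusted p = 0.0914) passed in WT-ERG, and *Chaf1a* missed the threshold in P199L-ERG without replicate 3 in DMSO or 3 or 4 in BRD3308 (up to 0.0779). Of the exon bases of *Chaf1a*, 52.5% lie opposite exons of *Ubxn6*.

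*E2f2*, an activating E2F factor, was 1 of the 3 members that rose with BRD3308, beside *Pola1* and *Prim1*. It was at 69.9, 66.2, 69.4 and 70.3 CPM in BB in DMSO and at 95.3, 95.8, 92.7 and 103 CPM with BRD3308. In WT-ERG it went from 51.5, 54.0, 53.5 and 55.8 CPM to 91.5, 86.6, 87.9 and 88.2 CPM, and in P199L-ERG from 58.4, 57.5, 57.0 and 59.7 CPM to 90.2, 85.1, 87.2 and 90.7 CPM. All treated libraries of all 3 constructs lay above all 12 DMSO libraries. The log2 rise was 0.49 ± 0.039 (adjusted p = 4.08e-11) in BB, 0.72 ± 0.040 (adjusted p = 1.77e-14) in WT-ERG and 0.60 ± 0.040 (adjusted p = 6.89e-13) in P199L-ERG. *E2f1*, its close relative, was at 92.0, 96.7, 94.4 and 95.5 CPM in BB in DMSO and at 84.5, 83.4, 83.5 and 85.7 CPM with BRD3308, a fall without overlap (-0.17 ± 0.053, adjusted p = 0.0113). It also fell in P199L-ERG (-0.24, adjusted p = 0.000515), by less without replicate 4 in DMSO (-0.16, adjusted p = 0.000748), and gave -0.054 (adjusted p = 0.437) in WT-ERG, where the libraries overlapped. The cyclin E genes, which drive entry into S phase with CDK2, passed in none, where the log2 changes of *Ccne1* lay between -0.11 and -0.026 and *Ccne2* between -0.21 and -0.17. Without replicate 4 of P199L-ERG in DMSO, *Ccne1* passed in WT-ERG (-0.12, adjusted p = 0.01965), where its libraries did not overlap. *Ccne2* then passed in P199L-ERG (-0.25, adjusted p = 0.0431).

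**Figure D3:**
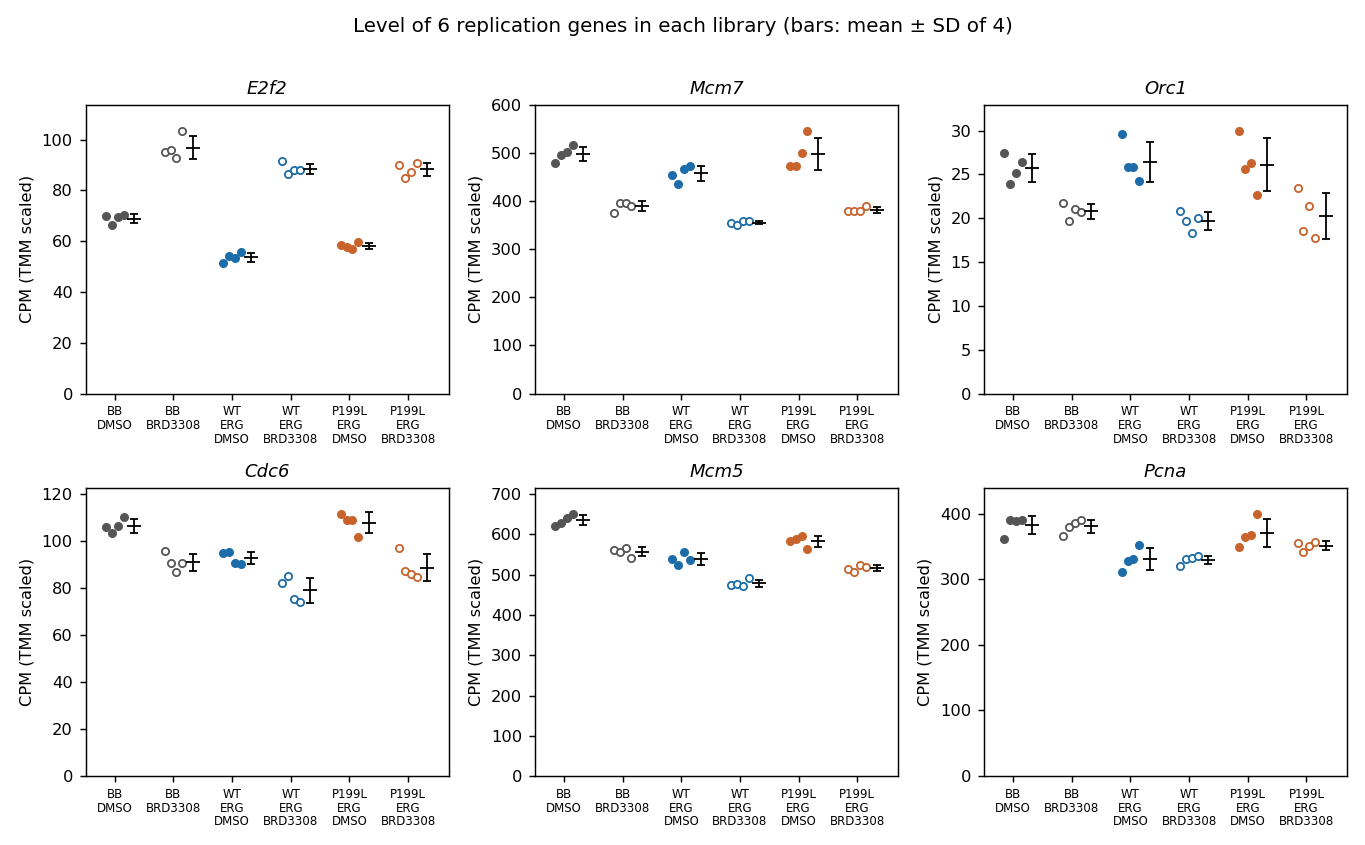
CPM of *E2f2*, *Mcm7*, *Orc1*, *Cdc6*, *Mcm5* and *Pcna* (y axes, starting at 0) in every library by group (x axes). Filled points are DMSO and open points BRD3308, and black bars are the mean ± SD of 4 libraries. *E2f2* is higher and *Mcm7*, *Orc1*, *Cdc6* and *Mcm5* are lower with BRD3308 in each construct, while the *Pcna* values of the 2 treatments overlap.

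Among the members with a promoter window, 11 of the 20 that fell with BRD3308 in WT-ERG cells held an E2F match, as did *E2f2* and *Pola1* of the 3 that rose and *Mcm3* and *Mcm6* of the 13 that did not pass. The shares by call over all tested genes were not counted. A link between a match and the change with BRD3308 was not tested.

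Over the same treatment, most of the tested markers of maturing myeloid cells rose. Of all tested genes 24%, 24.7% and 24.4% rose in BB, WT-ERG and P199L-ERG, and 22%, 23.2% and 24.1% fell. Of 10 monocyte and macrophage markers the 8 that could be tested all rose in each construct, and their summed level went from 1799 to 1960 CPM to 3645 to 3911 CPM in BB, from 826 to 914 CPM to 2470 to 2720.0 CPM in WT-ERG and from 1095 to 1188 CPM to 2863 to 3044 CPM in P199L-ERG. *C1qa*, a macrophage marker of that list, was at 0 in every library. Of 12 mature neutrophil markers 11 could be tested, of which 6 rose and 1 fell in BB, 7 rose and 1 fell in WT-ERG, and 6 rose in P199L-ERG. Their summed level lay at 3600.0 to 4475 CPM in DMSO and 5616 to 7368 CPM with BRD3308 in BB, at 3100.0 to 4246 and 6259 to 7755 CPM in WT-ERG, and at 2720.0 to 3686 and 5881 to 6712 CPM in P199L-ERG. The 10 progenitor markers together stood at 26960.0 to 27570.0 CPM in BB in DMSO and at 24130.0 to 25760.0 CPM with BRD3308. They lay at 27260.0 to 29590.0 and 26380.0 to 27510.0 CPM in WT-ERG, and at 28990.0 to 32230.0 and 27200.0 to 28610.0 CPM in P199L-ERG. Most of that sum was *Mpo*, whose mean went from 15760 to 13180 CPM in BB, 16280 to 14960 in WT-ERG and 17740 to 15240 in P199L-ERG. Single markers went both ways: in BB 5 of the 10 fell and 3 rose, *Fcgr3*, *Elane* and *Cd34*. Mean *Elane* went from 1061 to 2613 CPM in BB, 835.4 to 2146 in WT-ERG and 1072 to 2745 in P199L-ERG.

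Some markers of other lineages passed the test too. Of all tested genes 22%, 23.2% and 24.1% fell in BB, WT-ERG and P199L-ERG, and 24%, 24.7% and 24.4% rose. Of 7 mast cell and basophil markers 5 were tested, of which 1 fell in BB and 2 in each ERG line, with *Cpa3*, a mast cell protease, at log2 changes of -1.77, -1.75 and -1.89 in BB, WT-ERG and P199L-ERG. The list lay at 372.2 to 393.4 CPM in BB in DMSO and 298.4 to 339.4 with BRD3308, at 485.8 to 529.5 and 309.2 to 331.0 in WT-ERG, and at 416.8 to 488.9 and 270.0 to 289.6 in P199L-ERG, with *Fcer1a* and *Gzmb* at 0 in every group. Of 10 lymphoid markers 3 were tested, and the B cell genes *Ebf1* and *Cd79a* rose in all 3 constructs, *Cd79a* by 2.42, 2.41 and 2.32. The list went from 27.55 to 30.91 CPM to 47.99 to 51.15 CPM in BB, from 21.61 to 27.2 to 39.69 to 45.47 in WT-ERG and from 23.39 to 26.46 to 36.34 to 36.98 in P199L-ERG, with *Cd4* at 0 in every group. Of the erythroid and megakaryocyte markers 4 were tested. The platelet genes *Pf4* and *Gp9* rose while the integrin gene *Itga2b* fell in all 3 constructs, and *Gata1* of this list rose in BB. That list went from 25.19 to 28.54 CPM to 39.78 to 47.82 CPM in BB, from 64.2 to 70.31 to 52.52 to 54.36 in WT-ERG and from 45.37 to 48.26 to 39.84 to 44.07 in P199L-ERG. Of 8 non-blood markers the 2 tested, *Col1a1* and *Pecam1*, rose in each construct, and the list went from 80.49 to 91.46 CPM to 290.7 to 323.6 CPM in BB, from 136.2 to 143.4 to 364.0 to 406.2 in WT-ERG and from 155.8 to 166.5 to 360.1 to 396.3 in P199L-ERG, with *Krt18*, *Col3a1* and *Alb* at 0 in every group. The part of the cells of all these lists in the lower levels of the replication genes was not tested.

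The response to BRD3308 was compared between constructs by the difference of the 2 log2 changes. *E2f2* was the only member with a difference that passed: its rise was larger in WT-ERG than in BB cells by 0.23 ± 0.056 (adjusted p = 0.0237), with a 95% interval of 0.12 to 0.35. Of all tested genes, 0.825% had a larger and 0.903% a smaller change in WT-ERG than in BB. The call was lost without any 1 of 7 libraries (replicates 1, 3 and 4 of BB in DMSO, 2 and 3 of BB in BRD3308, and replicate 1 of WT-ERG in either treatment), at an adjusted p of 0.0506 to 0.0679. Over all alternatives the adjusted p ran from 0.00485 to 0.147, the highest with no filter on low counts, and the difference lay between 0.21 and 0.26. The difference between P199L-ERG and BB was 0.11 (adjusted p = 0.399) and that between P199L-ERG and WT-ERG -0.12 (adjusted p = 0.806). The DMSO values were 51.5 to 55.8 CPM in WT-ERG and 66.2 to 70.3 CPM in BB, and the BRD3308 values 86.6 to 91.5 CPM and 92.7 to 103 CPM.

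No member passed for P199L-ERG minus BB or P199L-ERG minus WT-ERG by edgeR as first fitted, DESeq2 or limma-voom. With each library's length trend as a covariate in edgeR, 2 members had a higher and 3 a lower change in P199L-ERG than in BB. At an unadjusted p under 0.05 edgeR gave 3 members for the first and 2 for the second. Of all tested genes 0.455% and 0.594% had a larger or smaller change in P199L-ERG than in BB, and 0.0231% in each direction between P199L-ERG and WT-ERG. The intervals of single genes bound what could have been missed. For *Mcm7* the differences from BB were -0.01 in WT-ERG (95% interval -0.12 to 0.10) and -0.028 in P199L-ERG (95% interval -0.14 to 0.08), and for *Pold1* they were -0.029 (95% interval -0.13 to 0.07) and -0.029 (95% interval -0.13 to 0.07). For *Orc1*, with lower counts, the difference between WT-ERG and BB was -0.12 (95% interval -0.36 to 0.12).

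A large share of the members was also lower with wild-type ERG than with the empty vector. In DMSO WT-ERG cells had lower levels than BB cells of 22 of the 45 genes and a higher level of 1, against 14.1% lower and 15.6% higher of all tested genes, with a median log2 difference of -0.12 over the members and 0.009 over all genes. With BRD3308 22 were again lower and 1 higher, against 10.7% and 10.4%, with a median of -0.13. Both treatments shared 19 of the lower genes, and *Pola2* was higher in both. Among the 25% of genes with the highest level 21.3% of genes were lower in DMSO, and of the 31 members there 18 were. By role, 6 of 6 MCM2-7 genes were lower in DMSO, 3 of 4 nucleotide supply genes and 1 of 7 helicase activation genes. Markers of mature cells moved here as well: of the 8 monocyte and macrophage markers 5 were lower and 2 were higher in WT-ERG cells in DMSO, and of the 11 neutrophil markers 5 were lower and 4 higher. In the erythroid and megakaryocyte list, at 25.19 to 28.54 CPM in BB and 64.2 to 70.31 CPM in WT-ERG in DMSO, *Itga2b* was higher (2.08, adjusted p = 3.48e-18) and *Gp9* lower of the 4 tested. In the mast cell and basophil list, at 372.2 to 393.4 and 485.8 to 529.5 CPM, 3 of the 5 tested were higher and 1 lower. The part of these markers' cells in the result was not tested.

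**Figure D4:**
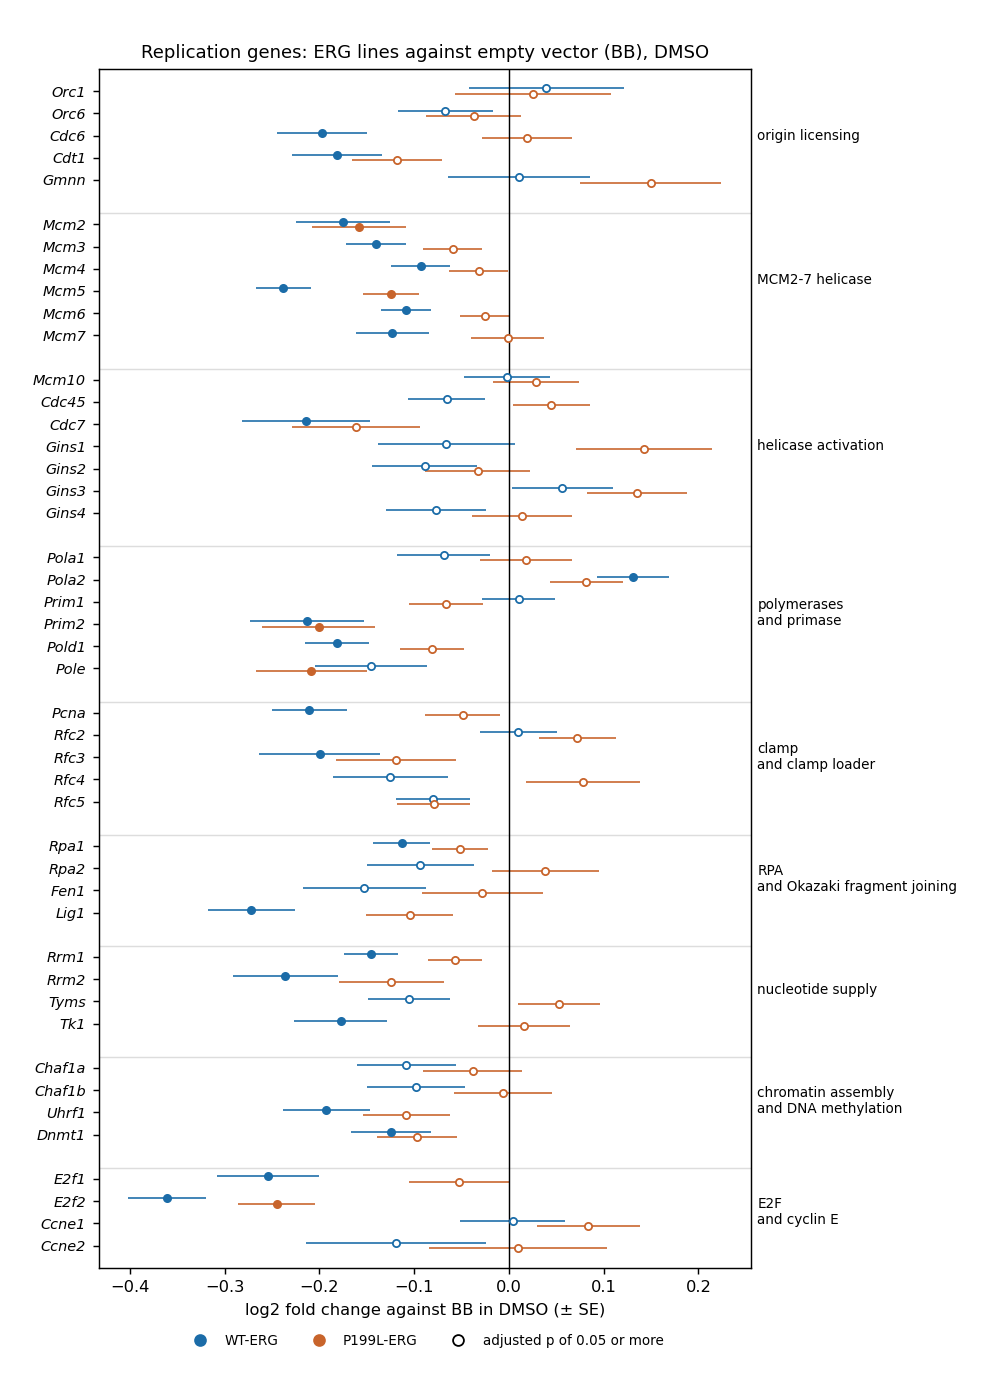
Log2 fold change against BB in DMSO (x axis, points with ± SE) for each of the 45 replication genes (y axis, grouped by role) in WT-ERG and P199L-ERG cells. Filled points passed an adjusted p of 0.05 and open points did not. Filled WT-ERG points number 23 and filled P199L-ERG points 5, and both lines share the BB libraries. The P199L-ERG count changed with left-out libraries and with the fit.

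*E2f2* had the largest difference from BB among the members in DMSO. Its 4 WT-ERG libraries, at 51.5 to 55.8 CPM, lay below the 4 BB libraries, at 66.2 to 70.3 CPM, and the log2 difference was -0.36 ± 0.041 (adjusted p = 5.62e-08). With BRD3308 it was -0.13 (adjusted p = 0.0165), and missed the threshold without replicate 4 of BB (0.0552) or replicate 2 of WT-ERG (0.058) in BRD3308. *E2f1* was at 80.6, 79.3, 78.7 and 78.8 CPM in WT-ERG against 92.0, 96.7, 94.4 and 95.5 CPM in BB in DMSO, without overlap (-0.25 ± 0.054, adjusted p = 0.000508). With BRD3308 it gave -0.14 (adjusted p = 0.0664).

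The 6 helicase genes were each lower in WT-ERG in DMSO by a small step. *Mcm5* was at 622, 629, 641 and 651 CPM in BB and at 539, 523, 557 and 537 CPM in WT-ERG, without overlap, a difference of -0.24 ± 0.029 (adjusted p = 2.60e-07). With BRD3308 it was at 562, 557, 567 and 542 CPM and 475, 477, 472 and 491 CPM, again apart (-0.22 ± 0.029, adjusted p = 1.76e-06). The other 5 lay between -0.18 for *Mcm2* and -0.093 for *Mcm4* in DMSO. The call of *Mcm4* was lost without replicate 2 or 4 of BB or 1 or 3 of WT-ERG in DMSO (adjusted p of 0.0509 to 0.0768) and that of *Mcm7* without replicate 4 of BB or 2 of WT-ERG (0.0596 and 0.0689). *Mcm3* and *Mcm6*, which had no called change with BRD3308, were lower at -0.14 (adjusted p = 0.000946) and -0.11 (adjusted p = 0.00225).

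*Pcna*, the clamp that holds the polymerases on DNA, was lower in WT-ERG. Its libraries were at 362, 390.0, 388 and 390.2 CPM in BB and at 311, 328, 331 and 352 CPM in WT-ERG in DMSO, with no overlap (-0.21 ± 0.040, adjusted p = 0.000137). With BRD3308 the difference was -0.21 ± 0.040 (adjusted p = 0.000244). *Lig1* was at 276, 291, 289.9 and 299 CPM in BB and 249, 239.5, 238 and 230.2 CPM in WT-ERG in DMSO, also apart (-0.27 ± 0.046, adjusted p = 3.27e-05). With BRD3308 it differed by -0.26 (adjusted p = 8.77e-05).

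*Cdc6* was lower in WT-ERG in DMSO, at 94.8, 95.5, 90.5 and 90.3 CPM against 106, 103, 106 and 110.3 CPM in BB, without overlap (-0.20 ± 0.048, adjusted p = 0.00206). *Orc1*, which fell with BRD3308 in all 3 constructs, gave 0.04 (adjusted p = 0.769) between WT-ERG and BB in DMSO and -0.08 (adjusted p = 0.589) with BRD3308. *Cdc7* was at 73.2, 68.6, 69.4 and 63.9 CPM in BB and 63.9, 59.5, 56.8 and 57.0 CPM in WT-ERG in DMSO. The highest WT-ERG library reached the lowest BB library, and the difference was -0.21 ± 0.068 (adjusted p = 0.0171). It missed the threshold without replicate 1 of BB (0.0638) or replicate 3 of WT-ERG (0.0572) in DMSO. *Pold1* was lower at -0.18 (adjusted p = 0.000115), its libraries not overlapping. *Uhrf1* was at 427, 417, 405 and 429 CPM in BB and at 379, 365, 369 and 355 CPM in WT-ERG in DMSO, without overlap (-0.19 ± 0.046, adjusted p = 0.00189).

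Ribonucleotide reductase was lower in both subunits. *Rrm1* was at 592, 610.0, 626 and 612 CPM in BB and 549, 532, 556 and 569 CPM in WT-ERG in DMSO, without overlap (-0.15 ± 0.029, adjusted p = 0.000226), and *Rrm2* differed by -0.24 (adjusted p = 0.00148). *Tk1* was at 103, 107, 112 and 113 CPM and 94.5, 92.3, 96.6 and 101 CPM, the lowest BB library standing just above the highest WT-ERG library (-0.18 ± 0.049, adjusted p = 0.00659). *Tyms* gave -0.11 (adjusted p = 0.0694) in DMSO and was lower with BRD3308 (-0.22, adjusted p = 0.000432). *Pola2* was higher in WT-ERG, at 113 to 118 CPM against 99.8 to 108 CPM in BB in DMSO, without overlap (0.13 ± 0.038, adjusted p = 0.00948). Without replicate 2 of BB in DMSO its adjusted p was 0.0534. The difference was 0.14 (adjusted p = 0.011) with BRD3308, lost without replicate 2 or 4 of BB or 3 or 4 of WT-ERG (up to 0.0696), while the treatment itself went with lower *Pola2* in every construct.

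For the mutant 5 of the 45 were lower in P199L-ERG than in BB in DMSO, *E2f2*, *Pole*, *Prim2*, *Mcm2* and *Mcm5*, and 0 were higher, against 12.9% lower and 15.3% higher of all tested genes. DESeq2 and limma-voom also called 0 higher, and edgeR put 2 above at an unadjusted p under 0.05. With BRD3308 6 were lower, *Prim2*, *Lig1*, *E2f2*, *Pcna*, *Pold1* and *Mcm5*, and 0 higher by any of the 3 tools or at an unadjusted p, against 8.81% and 8.12%. The median log2 difference was -0.033 in DMSO and -0.037 with BRD3308. *E2f2* was at 58.4, 57.5, 57.0 and 59.7 CPM in P199L-ERG in DMSO, apart from BB (-0.25 ± 0.040, adjusted p = 3.48e-05), and *Mcm5* at 584, 588, 596 and 564 CPM, also apart (-0.12 ± 0.029, adjusted p = 0.00192).

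The counts for the mutant depended on single libraries and on the fit. DESeq2 gave 8 lower members than in BB in DMSO and 7 with BRD3308, and the groups compared alone gave 4 and 11. With a replicate block or the length trend as a covariate more were lower under both treatments, at counts given at the end of the report. In DMSO the 5 lower members became 3 without replicate 4 of BB in DMSO and 8 without replicate 4 of P199L-ERG in DMSO or any 1 of 5 BRD3308 libraries (replicates 1 and 4 of BB, replicate 1 of WT-ERG, replicates 1 and 4 of P199L-ERG). They became 13, with 1 higher, without replicate 4 of both ERG lines in DMSO. Of the 5, *Mcm2* missed the threshold without replicate 4 of BB or of P199L-ERG in DMSO (0.0665 and 0.0583) and *Prim2* without replicate 3 or 4 of BB (0.0599 and 0.0575), and *Pole* went from -0.21 to -0.14 without replicate 4 of P199L-ERG. With BRD3308 the 6 became 2 without replicate 3 of BB and 12 without replicate 4 of P199L-ERG in DMSO.

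Against wild-type ERG, some replication genes were higher with the mutant and 0 lower. In DMSO 8 of the 45 were higher in P199L-ERG than in WT-ERG, against 2.23% of all tested genes, and 0 were lower, against 2.45%. None was lower by DESeq2 or limma-voom or at an unadjusted p under 0.05. The median log2 difference was 0.084 over the members and 0.002 over all genes, and 41 of the 45 estimates were above 0. With BRD3308 4 were higher, against 1.31%, and 0 lower, against 2.09%, by any of the 3 tools, with 1 below at an unadjusted p under 0.05. These 4 were *Mcm3*, *Mcm4*, *Mcm5* and *Mcm6*, and *Mcm5* was called in both treatments. Of the 8 monocyte and macrophage markers 2 were higher and 1 lower in P199L-ERG than in WT-ERG in DMSO, and of the 11 neutrophil markers 2 were higher and 5 lower. The mean CPM of P199L-ERG lay between those of BB and WT-ERG for 28 of the 45 members in DMSO. With BRD3308 it did so for 35, and the 3 comparisons share libraries. The share over all tested genes was not counted, so these counts cannot be read as particular to the members.

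*Cdc6* had the smallest p. It was at 112, 109, 109 and 102 CPM in P199L-ERG and at 94.8, 95.5, 90.5 and 90.3 CPM in WT-ERG in DMSO, and the log2 difference was 0.22 ± 0.048 (adjusted p = 0.0048). All 4 P199L-ERG libraries lay above all 4 WT-ERG libraries and overlapped those of BB. With BRD3308 it was at 97.1, 87.2, 85.8 and 84.7 CPM and 82.0, 85.0, 75.2 and 74.1 CPM, overlapping (0.16, adjusted p = 0.0586).

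*Pcna* was at 349, 364, 368 and 399.5 CPM in P199L-ERG in DMSO, and 1 of these libraries lay below the highest WT-ERG library (0.16 ± 0.040, adjusted p = 0.0128). *Tk1* was at 102, 104, 118 and 116 CPM, apart from WT-ERG (0.19 ± 0.049, adjusted p = 0.0175). *Mcm5* stood apart in both treatments, with 0.11 ± 0.029 (adjusted p = 0.0201) in DMSO and 0.11 ± 0.029 (adjusted p = 0.0352) with BRD3308. *Tyms* was at 101, 112, 109.9 and 118 CPM, overlapping WT-ERG (0.16 ± 0.043, adjusted p = 0.0298).

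*E2f1* was at 85.0, 86.4, 86.4 and 108 CPM in P199L-ERG in DMSO. All 4 lay above WT-ERG, and replicate 4 stood well above the other 3 (0.20 ± 0.054, adjusted p = 0.0241). Without that library the difference was 0.12 at an adjusted p of 0.0707, within a range of 0.00165 to 0.275 over the alternatives, and it also missed the threshold without replicate 2 or 3 of WT-ERG in DMSO, at 0.0639 and 0.0672. *Lig1* and *Rfc4*, the remaining calls, overlapped between the lines (0.17, adjusted p = 0.0308 and 0.20, adjusted p = 0.0489). *Lig1* was at 303 CPM in replicate 4 of P199L-ERG in DMSO and at 249 to 263 CPM in the other 3, and without that library its difference was 0.11 (adjusted p = 0.0951) and that of *Rfc4* 0.15 (adjusted p = 0.146).

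Of the 8 calls between the ERG lines in DMSO, 0 passed under every alternative, and 7, all but *Cdc6*, were lost without some 1 library. When the 2 groups were fitted alone 0 were higher, with 12 at an unadjusted p under 0.05, and 17 were higher with each library's length trend as a covariate. They were 3, 2 and 4 without replicate 1, 2 or 3 of WT-ERG in DMSO and 4 without replicate 3 of P199L-ERG in DMSO, and 7 without replicate 4 of both. With BRD3308 the 4 became 2 without replicate 3 of WT-ERG or replicate 1 or 3 of P199L-ERG in BRD3308, and 11 without replicate 4 of P199L-ERG in DMSO.

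After the group means were taken out, the median correlation between pairs of members over the 24 libraries was 0.067, against 0.003 for pairs of all tested genes, and 0.074 without the 2 libraries that stood apart. In such counts a correlation of this size is no finding, and the libraries share depth and length trend. *Mcm3*, *Rpa2*, *Lig1* and *Mcm6* followed the mean of the other members most closely, at correlations of 0.71, 0.67, 0.66 and 0.65. *Pola2* ran against it at -0.47, below *Pole* at -0.35. These values for single members used all 24 libraries and were not repeated without the 2 that stood apart. In replicate 4 of P199L-ERG in DMSO *Rpa2* was at 141 CPM, against 109 to 122 CPM in its group mates. *Pole* was at 85.8 CPM there, against 105 to 108 CPM.

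The 61 other replication genes of a wider list were read in the same fit. With BRD3308 26 fell and 5 rose in BB, 32 and 5 in WT-ERG and 32 and 5 in P199L-ERG, with medians of -0.094, -0.14 and -0.12. In the same order 22%, 23.2% and 24.1% of all tested genes fell and 24%, 24.7% and 24.4% rose. In WT-ERG cells *Dscc1*, a subunit of an alternative clamp loader, fell with a log2 change of -0.64 (adjusted p = 3.67e-06) and *Nasp*, a histone chaperone, with -0.42 (adjusted p = 2.17e-07). *Orc2*, another subunit of the origin complex, fell with -0.24 (adjusted p = 2.24e-05), and *Ctps*, CTP synthase, with -0.46 (adjusted p = 1.49e-09). *Samhd1*, which breaks down deoxynucleotides, rose (0.44, adjusted p = 1.66e-09), as did *Pclaf*, a PCNA-associated factor (0.25, adjusted p = 3.59e-06).

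Between WT-ERG and BB in DMSO 14 of the 61 were lower and 8 were higher, against 14.1% and 15.6% of all tested genes, and their median log2 difference was -0.034. *Esco2*, the cohesin acetyltransferase, was lower (-0.23, adjusted p = 3.03e-05) and *Blm*, a helicase, was lower (-0.23, adjusted p = 9.23e-05). *Orc2* (0.21, adjusted p = 0.0003) and *Ctps* (0.33, adjusted p = 8.63e-07) were higher. Of the 61, 4 were higher and 0 lower in P199L-ERG than in WT-ERG in DMSO by edgeR, against 2.23% and 2.45% of all tested genes. With BRD3308 1 was higher and 0 lower, against 1.31% and 2.09%.

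Cell cycle genes outside replication gave context. Of 25 genes of G2 and mitosis, 9 fell and 3 rose with BRD3308 in BB, 13 and 1 in WT-ERG and 10 and 2 in P199L-ERG. In the same order 22%, 23.2% and 24.1% of all tested genes fell and 24%, 24.7% and 24.4% rose. Among the 25% of genes with the highest level 35.4%, 36.5% and 38.0% fell. *Cdc20*, an activator of the anaphase-promoting complex, fell with -0.49 (adjusted p = 5.62e-12) in WT-ERG, and *Top2a*, topoisomerase 2 alpha, rose by 0.17 (adjusted p = 0.00207). Between WT-ERG and BB in DMSO 4 of the 25 were lower and 2 were higher, against 14.1% lower and 15.6% higher of all tested genes, at a median log2 difference of -0.011.

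Of 12 G1 cyclins, their kinases and inhibitors 10 could be tested. In BB 5 of them rose and 2 fell with BRD3308, against 24% and 22% of all tested genes. *Cdkn1a*, which encodes the cyclin-dependent kinase inhibitor p21, rose with BRD3308 in all 3 constructs, by 1.27 (adjusted p = 3.20e-16) in BB, 0.85 (adjusted p = 1.00e-12) in WT-ERG and 0.76 (adjusted p = 1.45e-11) in P199L-ERG. The rise was smaller in WT-ERG than in BB, with a difference of -0.42 (adjusted p = 0.00363), and smaller in P199L-ERG than in BB, with -0.51 (adjusted p = 0.000572). *Ccnd2*, cyclin D2, fell in all 3, and in DMSO WT-ERG cells had more of it than BB cells (0.50, adjusted p = 7.20e-10).

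Of 16 E2F, pocket protein and S-phase kinase genes, 7 fell and 1 rose with BRD3308 in BB, 7 and 1 in WT-ERG and 5 and 1 in P199L-ERG. In the same order 22%, 23.2% and 24.1% of all tested genes fell and 24%, 24.7% and 24.4% rose. In each construct the 1 that rose was *Rb1*, the retinoblastoma protein that holds E2F factors in check (0.36, adjusted p = 5.02e-06 in WT-ERG). *Chek1*, the replication checkpoint kinase, fell (-0.38, adjusted p = 2.85e-07). Between WT-ERG and BB in DMSO *E2f6*, a repressive E2F, was higher by 1.38 (adjusted p = 1.16e-12) and *Rb1* lower (-0.30, adjusted p = 0.000152). In P199L-ERG *E2f6* was lower than in WT-ERG (-0.68, adjusted p = 3.32e-06).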

How the data were processed

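RNA of 24 bulk libraries of ER-Hoxb8 cells was measured. The authors deposited raw read counts per gene, not normalised, for 53801 genes. The submitters' processing notes name cutadapt, STAR, HTSeq, DESeq2 and the build GRCm38, while versions, strand setting and annotation were not given in the sources used here. Gene names and exons came from GENCODE M21, which held 53706 of the IDs.

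Library totals were 12510036 to 16280939 counts, which limits the precision of the lowest members most. Groups followed the sample labels and 0 columns were left unmapped. Counts were filtered with filterByExpr, scaled with TMM and fitted in 1 model of the 24 libraries (edgeR 4.0.16 under R 4.3.3, quasi-likelihood F-test, 1 mean per group, 12 comparisons), with Benjamini-Hochberg adjustment over 12963 genes and a threshold of 0.05. Log2 CPM used a prior count of 2. The edgeR fit was tested on simulated data whose set changes were larger than the median change of the members. Recovery of changes as small as that median was thus not tested.

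As alternatives, the fit was repeated without a filter, with RLE factors, with library sizes alone, with DESeq2 1.42.0, with limma-voom (limma 3.58.1), on the groups compared alone, with a replicate block, with the length trend as a covariate, and with libraries left out. Members are described by counts and medians, and per-library values are given for the smallest p of each role with BRD3308 in WT-ERG and for WT-ERG against BB in DMSO, the 6 smallest between the ERG lines in DMSO and the calls of each response difference. Up to 4 genes of the smallest p were named from each other list, and further values were chosen after they were seen. The values of 1 marker gene are not reported here. The members and lists were chosen with earlier results of these data known. Promoter windows are from RefSeq on GRCm38.p6.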

Additional observations from a re-analysis of the deposited data

Results flagged for a closer look

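The values of 16 members were examined in each of the 6 groups, 96 groups of 4 libraries in all, and 5 held a library that stood far from the other 3, where chance gives about 1 in 20 groups. *E2f1* was at 107.7 CPM in replicate 4 of P199L-ERG in DMSO, against 85.0 to 86.44 CPM in the other 3. *Gins2* was at 39.98 CPM in replicate 1 of WT-ERG with BRD3308, against 44.42 to 44.87 CPM. *Lig1* was at 238.2 CPM in replicate 1 of P199L-ERG with BRD3308, against 223.1 to 225.7 CPM. *Mcm7* was at 389.9 CPM in replicate 4 of the same group, against 378.8 to 379.8 CPM. *Pcna* was at 361.8 CPM in replicate 1 of BB in DMSO, against 388.4 to 390.2 CPM.

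The response of *E2f2* to BRD3308 differed between constructs, with a log2 change larger by 0.233 in WT-ERG than in BB by the test of that difference.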

How the results depend on the processing

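Of 157 member calls, 104 passed under each of the 9 alternatives and 24 leave-one-out fits, and 0 changed sign. By comparison these were 24 of 30, 22 of 27 and 25 of 30 calls with BRD3308 in BB, WT-ERG and P199L-ERG, 16 of 23 between WT-ERG and BB in DMSO and 14 of 23 with BRD3308, 3 of 5 between P199L-ERG and BB in DMSO, and 0 of the other 19. With no filter on low counts, 0 members were higher in WT-ERG than in BB in DMSO, 0 with BRD3308 and 0 for the response difference. The lower members of P199L-ERG against BB were then 8 in DMSO and 3 with BRD3308, and the higher ones against WT-ERG 5 and 1. DESeq2 gave 8 lower members for P199L-ERG against BB in DMSO and 7 higher against WT-ERG with BRD3308, and its adjusted p was missing for *Fen1*, *Orc1* and *Gins3* in the response difference between the ERG lines. Library size alone gave 2 higher members for WT-ERG against BB with BRD3308. The groups compared alone gave 2 there, 11 lower for P199L-ERG against BB with BRD3308, and 0 and 9 higher against WT-ERG in DMSO and with BRD3308.

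With a replicate block, 2 members were higher and 12 lower in P199L-ERG than in BB in DMSO and 10 lower with BRD3308, 16 and 11 were higher than in WT-ERG in DMSO and with BRD3308, and 2 were higher in WT-ERG than in BB with BRD3308. The other counts under the block stayed within 1.5 times. The replicate numbers were not taken to pair the libraries, since the labels give them no shared batch and the deviations of same-numbered libraries correlated at -0.005 to 0.295, over 0.1 in only 29 of 60 pairs. In 43 of the 60, however, the correlation was highest with the own number, out of 4 numbers compared. The numbers may thus mark something shared, which the main tests do not model. With the length trend as covariate the same 6 counts were 4, 14, 12, 17, 13 and 2, and the response difference between P199L-ERG and BB had 2 higher and 3 lower. Without replicate 4 of both ERG lines in DMSO, P199L-ERG against BB had 1 higher and 13 lower in DMSO and 11 lower with BRD3308, P199L-ERG against WT-ERG 11 higher with BRD3308, and WT-ERG against BB 2 higher with BRD3308.

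Leaving out each library in turn moved the counts with BRD3308 to 25 to 30 lower and 2 to 3 higher in BB, 22 to 29 and 2 to 3 in WT-ERG and 26 to 30 and 2 to 3 in P199L-ERG. Between WT-ERG and BB, 19 to 27 were lower and 0 to 1 higher in DMSO, and 16 to 26 lower and 0 to 1 higher with BRD3308. Between P199L-ERG and BB, 3 to 8 were lower and 0 to 2 higher in DMSO, and 2 to 12 lower with BRD3308. Between the ERG lines 2 to 11 were higher in DMSO and 2 to 11 with BRD3308, and the response difference of WT-ERG and BB had 0 to 1 higher. The cause of these moves was not tested.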
